A study of Mus musculus with 16 samples.

Results

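The strain by peptide interaction is the response of NOD thymocytes to peptide minus the response of B6g7 thymocytes to peptide, that is, a difference of 2 differences. It was computed over 12 of the 16 arrays of the series. The 4 groups were BDC2.5 transgenic NOD thymocytes with peptide for 16 h, BDC2.5 NOD thymocytes with no peptide, BDC2.5 B6g7 thymocytes with peptide for 16 h, and BDC2.5 B6g7 thymocytes with no peptide, with 3 arrays each. The other 4 arrays, of wild-type thymocytes, took no part in the contrast.

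All 4 groups were double-positive (CD4+CD8+) thymocytes grown in fetal thymic organ culture, that is, in whole lobes of fetal thymus maintained outside the animal. All carried the BDC2.5 transgenes, which encode the T cell receptor (TCR) of a diabetogenic CD4 T cell clone, so they bear largely 1 receptor in place of a normal repertoire and are a model of 1 specificity. The NOD strain is prone to autoimmune diabetes. The B6g7 strain has a C57BL/6 background with the MHC haplotype of NOD, so that both strains can present the same peptide on the same MHC class II molecule. The labels name neither the peptide, its dose, the age of the lobes nor the number of animals, and they do not say that replicates are separate cultures. If they were not, the spread behind each p-value is a technical one.

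As background, a strong TCR signal in a double-positive thymocyte leads to negative selection. Calcium, MAP kinase and NF-kB signals induce immediate-early genes such as those of the Nr4a and Egr families, then the BH3-only gene Bcl2l11 (Bim) and receptors of activated T cells, while the recombination genes of the double-positive stage are shut down. NOD thymocytes have been studied for a defect in this process. A positive interaction here means that the signed log2 response is higher in NOD than in B6g7, and a negative one that it is lower. For a gene that falls with peptide, a positive interaction can thus mean a smaller fall in NOD.

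Defining markers of double-positive cells were present on all 12 arrays. The lowest intensity of Cd8a was 1074, of Cd8b1 415, of Cd4 158 and of Cd3e 213, against array medians between 54.7 and 59.1. The recombination genes Rag1 and Dntt had lowest intensities of 543 and 864. Arrays numbered 3 stood apart from the rest. They took first-component values between -34.8 and -13.7, against -6.49 to 24.5 for the other 8 arrays, and this component took up 54.3% of variance among the 3000 probe sets that varied most. The B6g7 peptide array numbered 3 also lay alone at the lowest second-component value, -28.2. Arrays numbered 3 differed in a control of RNA quality too, the 3' minus the 5' control probe set in log2. For actin it was 1.36 to 1.86 in them, against 2.24 to 3.27 in the others. For Gapdh it was 1.52 to 2.04 against 2.15 to 2.97. Each group held 1 array of each number, so the interaction was balanced for them, and it was read within each number as well. Across the 12422 probe sets the interaction correlated with the loading of the first component at r = -0.46. The B6g7 response did so at 0.45 and the NOD response at -0.05, as a description across probe sets that share arrays. The difference of differences of the first component was -11.4, -14.4 and -7.03 in numbers 1, 2 and 3. That of the actin control was -0.72, 0.61 and -0.73, and that of the Gapdh control -0.96, 0.78 and 0.55. The part of the first component and of these controls in the interaction was not tested.

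No probe set passed the interaction test. limma called 0 of 12422 probe sets (0%) at a Benjamini-Hochberg adjusted p under 0.05, and 134 (1.08%) had an unadjusted p under 0.05, 60 of them (0.483% of all) with a positive and 74 (0.596%) with a negative interaction. With the replicate number as a block, limma also called 0, with 578 (4.65%) at an unadjusted p under 0.05, of which 299 (2.41%) were positive and 279 (2.25%) negative. When each array was centred on its median, 139 of 189 were positive, so this split of directions depends on the scale. Only 40 (0.322%) had an interaction above 1 log2 in size. In the fit without a block the median standard error of the interaction was 0.22 log2, and the unadjusted 95% interval reached 0.49 to each side at the median. With the replicate number as a block these medians were 0.16 and 0.35. In a typical probe set with 3 arrays per group, an interaction smaller than this half-width has an interval that includes 0. A call after adjustment needs a larger one, and Asf1b at 1.01 ± 0.28 was not called.

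Neither response alone gave a called probe set in this fit. The NOD response was called for 0 probe sets, with 224 (1.8%) at an unadjusted p under 0.05, and the B6g7 response for 0, with 409 (3.29%). The mean of both responses was called for 3 probe sets (0.0242%): Nr4a1, Itm2a and the dimmer probe set of Gadd45b. Over all probe sets the B6g7 responses were spread more widely, with an SD of 0.17 log2 for the NOD responses and 0.23 for the B6g7 responses. The mean response and the interaction therefore correlated, at r = -0.32 over the 12422 probe sets, which share arrays.

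**Figure D1:**
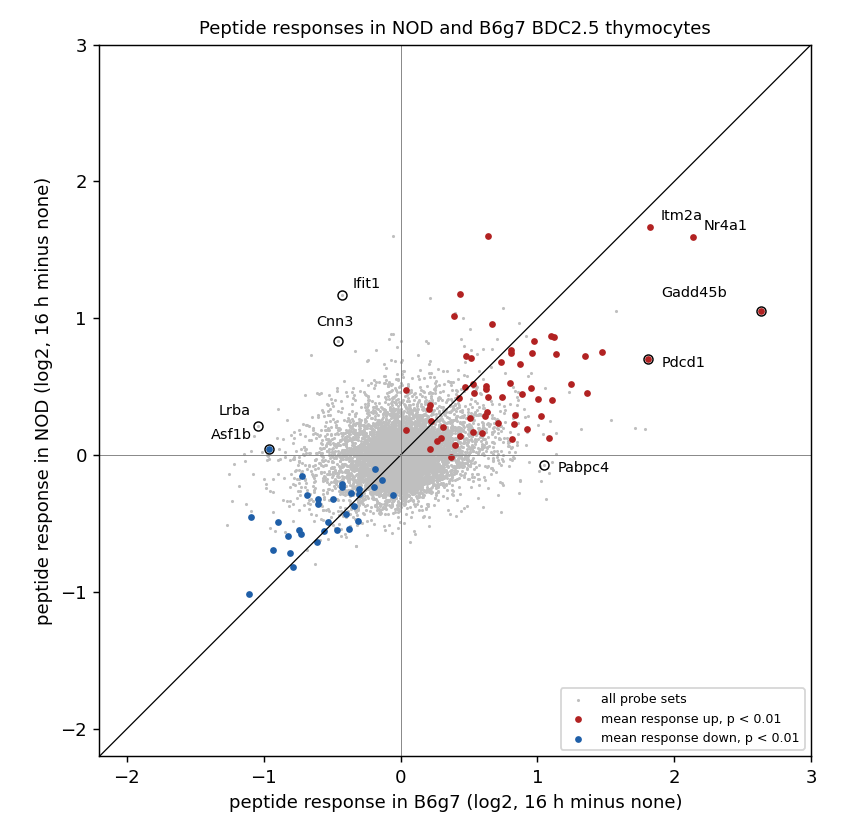
Peptide response of each of 12422 probe sets in NOD (y axis, log2, 16 h minus none) against the response in B6g7 (x axis, same unit), with the line of equal response. Red and blue points are the 60 and 32 probe sets with a mean response up or down at unadjusted p under 0.01, ringed points are named, and 48 of the 60 red points lie below the line.

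The named genes with a positive interaction showed 2 patterns, and none passed the test. In one, peptide went with lower values in B6g7 and nearly level values in NOD. Asf1b, a chaperone of histones H3 and H4 that works during DNA replication, is the clearest. Its intensities were 1097, 860 and 1107 in NOD with peptide and 787, 1175 and 1034 in NOD without, against 652, 673 and 526 in B6g7 with peptide and 1147, 1203 and 1242 in B6g7 without (arrays 1, 2 and 3 in each). The 3 peptide-treated B6g7 arrays were lower than all 9 others. How many of all probe sets show such a separation of 1 group, here and for the genes below, was not counted. The NOD response was 0.04 and the B6g7 response -0.96, which gave an interaction of 1.01 ± 0.28 (log2, SE, n = 3 per group, 95% interval 0.39 to 1.62, unadjusted p = 0.0041, limma adjusted p = 1). It was 1.29, 0.39 and 1.34 in the array numbers, where 1 sign in all numbers was required by the rule for naming.

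Lrba, a vesicle protein that protects CTLA-4 from lysosomal degradation, had 362, 306 and 524 in NOD with peptide and 205, 353 and 516 in NOD without, against 188, 271 and 212 in B6g7 with peptide and 322, 478 and 612 in B6g7 without. The 2 B6g7 groups did not overlap and the 2 NOD groups did. Its interaction was 1.25 ± 0.49 (unadjusted p = 0.0253), with a smaller value in number 2 (0.61) than in numbers 1 and 3 (1.60 and 1.55). Cdkn2d, the CDK4 and CDK6 inhibitor p19, gave 547, 555 and 721 in NOD with peptide and 504, 655 and 709 in NOD without, against 423, 563 and 343 in B6g7 with peptide and 698, 972 and 756 in B6g7 without. All peptide-treated B6g7 values lay below those of untreated B6g7, while the NOD groups overlapped, for an interaction of 0.85 ± 0.33. Spag7 (0.94 ± 0.38) and Lsm8, of the ring that binds U6 snRNA (0.77 ± 0.33), had NOD responses of -0.03 and 0.16 beside B6g7 responses of -0.96 and -0.61.

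In the other pattern the 2 strains had responses of opposite sign. Cnn3, calponin 3, an actin-binding protein, had the largest interaction of the 12 positive probe sets named by p and size, 1.29 ± 0.48 (95% interval 0.25 to 2.33, unadjusted p = 0.0192). Its intensities were 198, 193 and 199 in NOD with peptide and 81.8, 167 and 98.5 in NOD without, against 481, 864 and 490 in B6g7 with peptide and 554, 1219 and 776 in B6g7 without. All 6 NOD values were lower than all 6 B6g7 values, so the response was measured from very different starting levels. NOD minus B6g7 was -1.58 log2 with peptide and -2.87 without.

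Nfe2l2 (NRF2), the transcription factor of the oxidative stress response, had 294, 239 and 327 in NOD with peptide and 171, 199 and 245 in NOD without, against 211, 223 and 228 in B6g7 with peptide and 217, 370 and 351 in B6g7 without. It was higher with peptide in 3 of 3 NOD pairs and lower in 3 of 3 B6g7 pairs, where a pair is the 2 arrays of 1 number. Its interaction of 0.95 ± 0.32 was even across numbers (0.82, 0.99 and 1.03). Otulinl (0.93 ± 0.36), Midn, a nuclear protein that delivers immediate-early gene products to the proteasome (0.78 ± 0.27), and Mrm3, a methyltransferase of mitochondrial ribosomal RNA (0.74 ± 0.31), also had opposite signs in all pairs. Over all probe sets, 377 (3.03%) had opposite responses in all 3 pairs of each strain. That share is no yardstick here, since these probe sets were named by interaction p and by 1 sign in all numbers. Mff, which promotes mitochondrial fission, gave 0.88 ± 0.39, and Cox17, a copper chaperone of cytochrome c oxidase, 0.76 ± 0.31. The dimmer probe set of Mrm3 gave -0.18, so its 2 probe sets disagreed.

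Of the 7 named probe sets with a negative interaction, the most negative was that of Pabpc4, a cytoplasmic poly(A)-binding protein. It had 163, 225 and 148 in NOD with peptide and 175, 230 and 157 in NOD without, against 370, 240 and 477 in B6g7 with peptide and 178, 198 and 137 in B6g7 without. The peptide-treated B6g7 arrays were higher than all 9 others, and the NOD groups overlapped. The interaction was -1.12 ± 0.38 (95% interval -1.95 to -0.28, unadjusted p = 0.0133), with -1.16, -0.31 and -1.88 in numbers 1, 2 and 3. Its dimmer probe set gave 0.00.

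Mapkapk2, a kinase downstream of p38 MAP kinase that stabilises cytokine mRNAs, had 221, 246 and 189 in NOD with peptide and 220, 247 and 165 in NOD without, against 330, 257 and 392 in B6g7 with peptide and 220, 185 and 156 in B6g7 without. Here too the 3 peptide-treated B6g7 values exceeded all others. Its interaction was -0.73 ± 0.31, and its dimmer probe set gave 0.02. Chchd10, a protein of the mitochondrial intermembrane space, gave -0.85 ± 0.38, and Cox6a2, a cytochrome c oxidase subunit known from muscle, -0.82 ± 0.32. Anapc1, a subunit of the anaphase-promoting complex, gave -0.75 ± 0.31, and -0.15 by its dimmer probe set. St7 (-0.51 ± 0.23) and Acp2, lysosomal acid phosphatase (-0.49 ± 0.18), complete the 7. Of 26 probe sets that met the criteria for naming, 19 were positive and 7 negative. Since unadjusted p chose them, their size is a description.

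**Figure D2:**
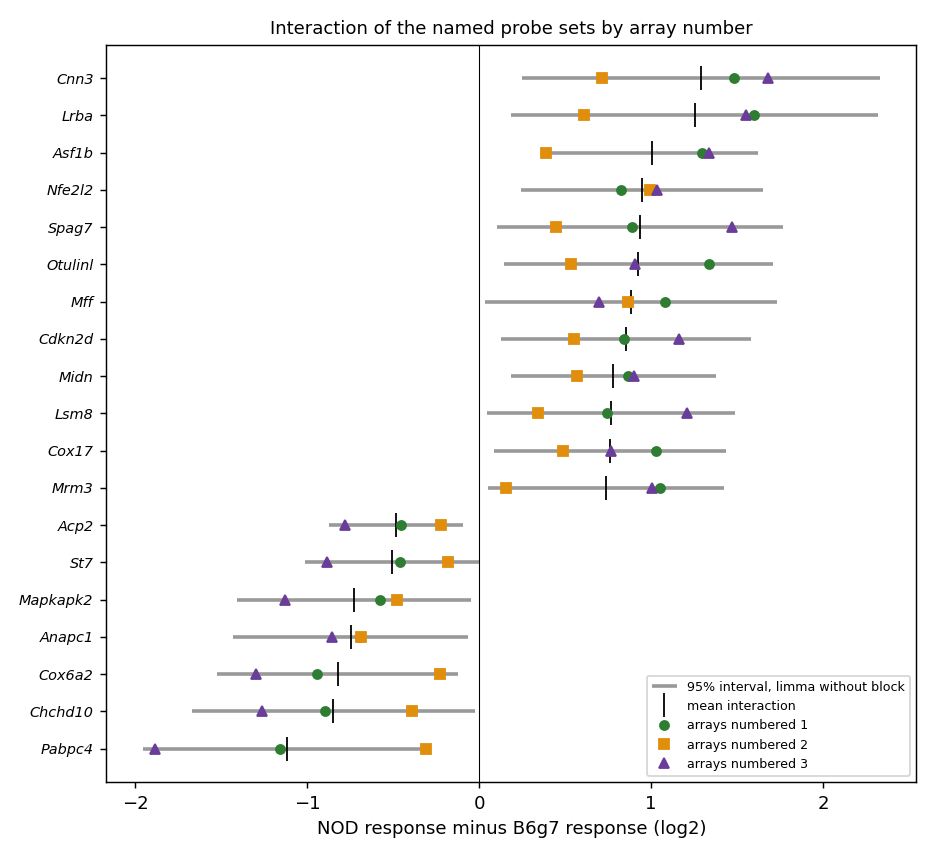
Interaction (log2, NOD response minus B6g7 response) of the 12 most positive and all 7 negative named probe sets. Bars are 95% intervals of the limma fit without a block, ticks the mean, and symbols the arrays numbered 1, 2 and 3. Number 2 (orange squares) lies nearer to 0 than numbers 1 and 3 in most rows, as in Pabpc4 at -0.31.

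The 3 mean-response calls belong to genes induced by TCR signals, and their interactions ranged between -1.58 and -0.16. Gadd45b, an NF-kB and stress target, had by its dimmer probe set 47.8, 48.1 and 44.3 in NOD with peptide and 22.6, 30.7 and 16.4 in NOD without, against 161, 92.7 and 237 in B6g7 with peptide and 30.6, 31.9 and 15.3 in B6g7 without. The groups with peptide did not overlap with each other, nor with those without. The NOD response was 1.05 and the B6g7 response 2.63, an interaction of -1.58 ± 0.50 (95% interval -2.66 to -0.50, unadjusted p = 0.00794, limma adjusted p = 1). It was negative in each number (-1.32, -0.89 and -2.53), as were the interactions of 2357 (19%) of all probe sets. All 9 values outside peptide-treated B6g7 lay below their array's median, and detection calls were not part of the values used here. The brighter probe set gave -0.44 ± 0.41 (-0.11 without the treated B6g7 array numbered 3 and -0.71 without number 2), with 271, 190 and 210 in NOD with peptide and 188, 168 and 134 in NOD without, against 235, 174 and 400 in B6g7 with peptide and 171, 132 and 114 in B6g7 without. The 2 probe sets of Gadd45b thus differed in size by more than 1 log2 unit.

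Nr4a1 (Nur77), the orphan nuclear receptor induced by TCR signals, had 495, 398 and 847 in NOD with peptide and 174, 279 and 124 in NOD without, against 1136, 854 and 1759 in B6g7 with peptide and 332, 256 and 236 in B6g7 without. Peptide-treated arrays exceeded untreated ones in both strains without overlap, and the lowest treated B6g7 value, 854, was just above the highest treated NOD value, 847. The interaction was -0.54 ± 0.51 (95% interval -1.66 to 0.58, unadjusted p = 0.314), so a deficit in NOD of up to 1.66 log2 and an excess of up to 0.58 were both within it. It was -0.23 without the untreated NOD array numbered 2 and -0.85 without the treated NOD array numbered 3. Itm2a, a transmembrane protein of thymocyte selection, gave 833, 660 and 1312 in NOD with peptide and 298, 265 and 286 in NOD without, against 908, 1142 and 1102 in B6g7 with peptide and 211, 268 and 458 in B6g7 without. The strains overlapped in both states, and the interaction was -0.16 ± 0.43 (95% interval -1.08 to 0.77), with numbers of both signs (-0.63, -0.77 and 0.93). It was 0.09 without the untreated B6g7 array numbered 1 and -0.47 without the untreated B6g7 array numbered 3.

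Egr2, a zinc-finger factor induced by calcineurin and MAP kinase signals, had a positive interaction. It had 490, 266 and 1345 in NOD with peptide and 145, 188 and 229 in NOD without, against 284, 384 and 565 in B6g7 with peptide and 159, 270 and 379 in B6g7 without. The interaction of 0.97 ± 0.72 (95% interval -0.61 to 2.54) came from numbers 1 and 3 (0.92 and 1.98), while number 2 gave 0.00. It was 0.33 without the treated NOD array numbered 3 and 1.50 without the treated NOD array numbered 2. Nab2, a corepressor of Egr factors, gave 0.24 ± 0.26, Egr1 0.21 ± 0.49, Fos 0.32 ± 0.60 and Ier2 -0.43 ± 0.45, each with an interval that includes 0. Nr4a2, by its brighter probe set, gave -0.89 ± 0.64, with intensities of at most 36.0 on all arrays but the peptide-treated B6g7 array numbered 3, which had 145. Without that array it was -0.16.

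No receptor or transcription factor of activated T cells passed the test. Pdcd1 (PD-1), an inhibitory receptor, had 103, 95.6 and 133 in NOD with peptide and 75.4, 63.8 and 63.6 in NOD without, against 273, 103 and 478 in B6g7 with peptide and 75.1, 67.6 and 61.9 in B6g7 without. The untreated groups overlap, and the treated B6g7 arrays numbered 1 and 3 are high while number 2 is at the NOD level. The interaction was -1.10 ± 0.58 (95% interval -2.36 to 0.15) and -0.02 in number 2. It was -0.60 without the treated B6g7 array numbered 3 and -1.71 without number 2. Irf4, a factor graded by TCR signal strength, had 49.3, 44.3 and 53.2 in NOD with peptide and 40.5, 37.3 and 42.6 in NOD without, against 77.9, 58.7 and 134 in B6g7 with peptide and 41.3, 40.8 and 43.0 in B6g7 without. The peptide-treated groups did not overlap, and the interaction was -0.74 ± 0.32 (unadjusted p = 0.0402), negative in each number (-0.63, -0.28 and -1.32). Over all probe sets, 2357 (19%) were negative in each number.

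Tnfrsf4 (OX40), a costimulatory receptor, had 157, 158 and 151 in NOD with peptide and 148, 144 and 110 in NOD without, against 180, 189 and 300 in B6g7 with peptide and 125, 118 and 122 in B6g7 without. The 3 peptide-treated B6g7 arrays were higher than all others, and the interaction was -0.61 ± 0.28, again negative in each number, as in 19% of all probe sets. With the replicate block Pdcd1 had an unadjusted p of 0.0492 and Tnfrsf4 of 0.0482 (limma adjusted p = 0.876 for both). Tnfrsf1b, a TNF receptor, gave -0.70 ± 0.41, Tnfsf11 (RANKL) -0.62 ± 0.53, Nfatc1, a calcineurin-regulated factor, -0.71 ± 0.62, and the NF-kB subunits Relb and Nfkb2 -0.59 ± 0.36 and -0.46 ± 0.33. None passed, and the interval of each includes 0. Nfatc1 gave -0.17 without the treated B6g7 array numbered 3 and -1.15 without the treated NOD array numbered 3. Nfkbia, the inhibitor of NF-kB, gave 0.24 ± 0.39 by its brightest and -0.49 ± 0.52 by its dimmer probe set. Tnfrsf9 (4-1BB), a costimulatory receptor, gave -0.11 ± 0.14 by its brightest probe set and -1.28 ± 0.71 by its dimmer one, which was -0.47 without the treated B6g7 array numbered 3. Cd28, a costimulatory receptor, gave 0.57 ± 0.40, and Cd5, which damps TCR signals, -0.14 ± 0.56.

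**Figure D3:**
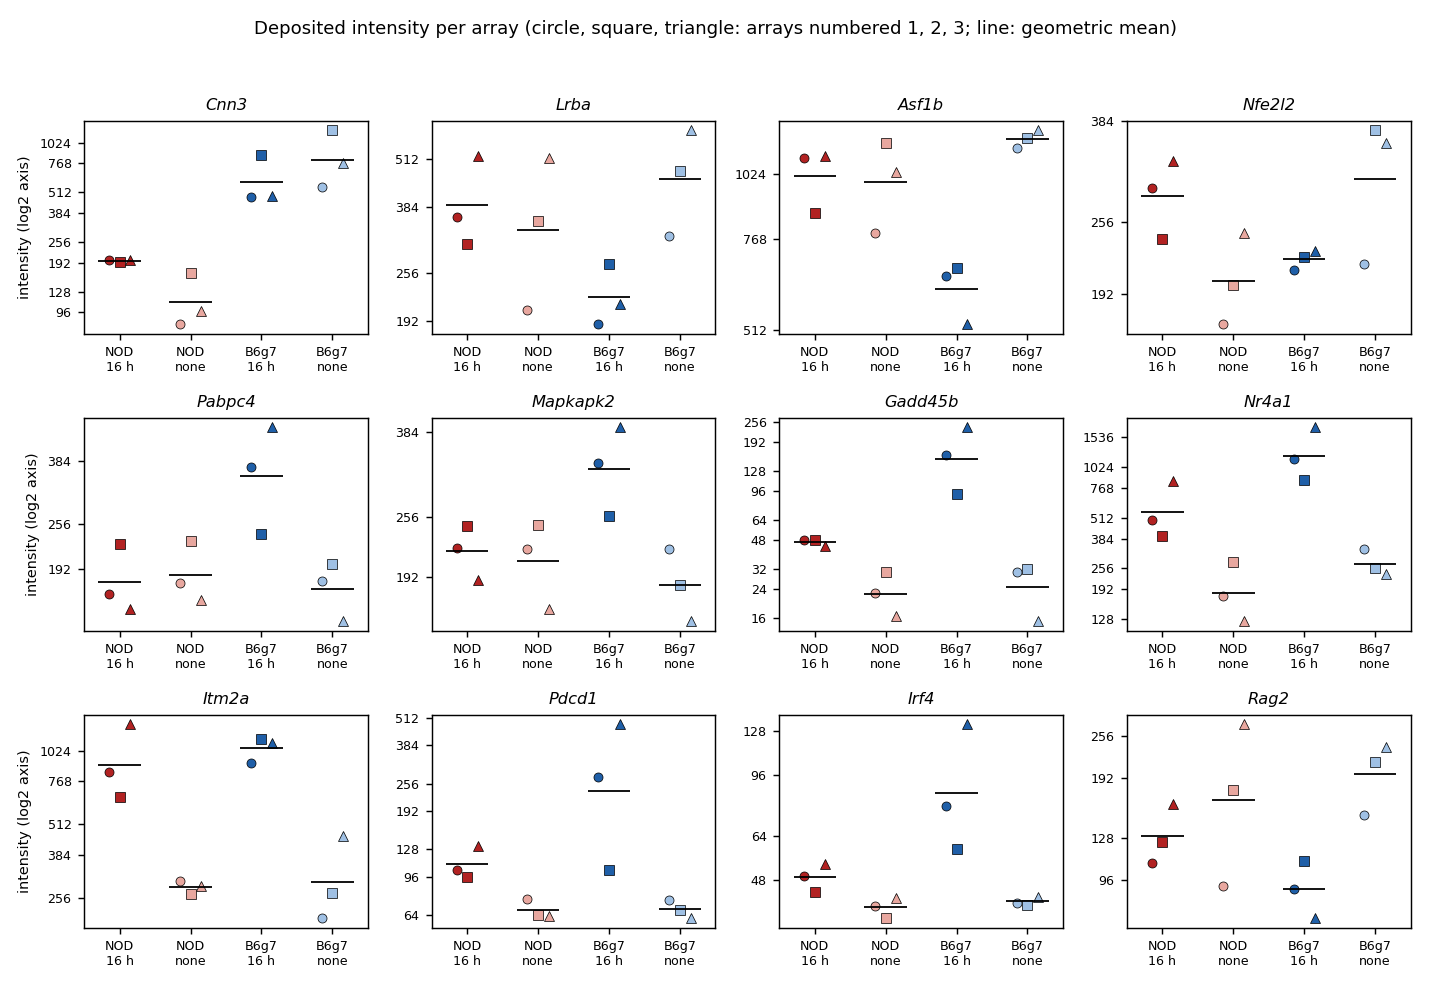
Deposited intensity (log2 axis) on each array for 12 genes, with groups from left to right NOD 16 h, NOD none, B6g7 16 h and B6g7 none. Symbols mark arrays numbered 1, 2 and 3, and lines geometric means. The peptide-treated B6g7 arrays lie lowest in Asf1b and highest in Pabpc4, Mapkapk2 and Gadd45b (dimmer probe set).

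Death and survival genes had interactions of both signs. Bcl2l11 (Bim), the BH3-only gene needed for negative selection, had 340, 358 and 625 in NOD with peptide and 223, 304 and 244 in NOD without, against 531, 552 and 909 in B6g7 with peptide and 269, 323 and 288 in B6g7 without. Treated exceeded untreated values in both strains, and the interaction was -0.40 ± 0.39 (95% interval -1.25 to 0.44). Its other 2 probe sets gave -0.27 and -0.08. Bcl2, a survival gene, differed by probe set. One, which was not its brightest, had 243, 221 and 304 in NOD with peptide and 121, 132 and 87.8 in NOD without, against 156, 189 and 160 in B6g7 with peptide and 107, 140 and 129 in B6g7 without. There the treated NOD arrays were the 3 highest, with an interaction of 0.75 ± 0.28 (unadjusted p = 0.0206). The other 2 probe sets, which include the brightest, gave 0.35 ± 0.31 and -0.15 ± 0.27. The value of 0.35 was 0.07 without the treated NOD array numbered 3 and 0.55 without the treated NOD array numbered 2.

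Casp6, an effector caspase, had 201, 193 and 152 in NOD with peptide and 143, 221 and 180 in NOD without, against 102, 117 and 85.8 in B6g7 with peptide and 163, 174 and 153 in B6g7 without. The peptide-treated B6g7 arrays were the 3 lowest of 12, and the interaction was 0.71 ± 0.28 (unadjusted p = 0.0258). Over the 28 pro-apoptotic genes on the array the median interaction was 0.00, with 13 below 0, and over the 17 anti-apoptotic genes it was 0.04, with 8 below 0. Beside these, 56.7% of the brightest probe sets of all 8251 genes lay below 0 when the scale was left as deposited. Mcl1 (-0.01 ± 0.31), Bcl2l1 (-0.22 ± 0.20), Fas (0.25 ± 0.38) and Fasl (-0.10 ± 0.11) gave small values with intervals across 0.

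Of 23 genes of the double-positive programme, 8 (34.8%) were below 0, beside 56.7% of all genes, and none had an unadjusted p under 0.05. Their values ran between -0.72 and 0.77 with a median of 0.16 (0.33, 0.09 and 0.06 in numbers 1, 2 and 3, and 0.10 without the treated B6g7 array numbered 1), beside a median NOD response of -0.13 and a median B6g7 response of -0.25. The B6g7 responses were also spread more widely over all probe sets. The share describes the list, does not by itself show a strain difference, and was not tested. Rag2, of the V(D)J recombinase, had 108, 125 and 161 in NOD with peptide and 92.6, 177 and 277 in NOD without, against 90.8, 109 and 74.3 in B6g7 with peptide and 150, 215 and 238 in B6g7 without. The B6g7 groups did not overlap, and the NOD groups did, for an interaction of 0.77 ± 0.48 (95% interval -0.29 to 1.83). Rag1 gave 0.69 ± 0.81 and Dntt, the terminal transferase, 0.20 ± 0.41.

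Ccnd3, the D cyclin of thymocyte expansion, had 1376, 1434 and 1327 in NOD with peptide and 1495, 2170 and 2050 in NOD without, against 691, 1086 and 510 in B6g7 with peptide and 1422, 1634 and 1590 in B6g7 without. All 3 treated B6g7 values were lower than every other, and the interaction was 0.64 ± 0.36 (95% interval -0.15 to 1.43), with -0.01 in number 2. Ets2, a transcription factor of the ETS family, gave 0.41 ± 0.34. Il7r (-0.06 ± 0.44) and Ccr7 (-0.32 ± 0.29), both of later thymocytes, gave intervals across 0. Pdk1 and Slc1a5, whose NOD and B6g7 values did not overlap, had interactions of 0.37 ± 0.27 and -0.04 ± 0.24. The metabolic and growth genes Ephx1, Pprc1 and Mettl1 gave -0.23 ± 0.33, -0.33 ± 0.15 and -0.32 ± 0.15.

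The probe sets with the smallest p for the mean response were described by the sign of their interaction. limma called 3 of 12422 probe sets (0.0242%) for this response, and 435 (3.5%) had an unadjusted p under 0.05. A peptide response is thus not established for most of the probe sets described here. Of 60 with a mean response up at unadjusted p under 0.01, 48 (80%) had a negative interaction, beside 56.3% of all probe sets, with a median interaction of -0.23. The NOD response of this set had a median of 0.45 beside 0.69 for the B6g7 response, and the interaction had medians of -0.26, -0.23 and -0.26 in numbers 1, 2 and 3. Of 32 with a mean response down, 22 (68.8%) had a positive interaction, beside 43.7% of all. Their median was 0.09, and it was 0.31 in numbers 1 and 3 and -0.09 in number 2. Without the treated B6g7 array numbered 3 the medians were -0.15 for the up and 0.00 for the down probe sets. Because the B6g7 responses were spread more widely, a choice by the sum of both responses favours probe sets with large B6g7 responses, and so negative interactions among those up and positive ones among those down. The shares describe the chosen probe sets, cannot tell this choice apart from a strain difference, and were not tested. Egr2 (0.97), Srgn, a granule proteoglycan (0.63), Sh3bp2, an adaptor (0.44), and Itih5 (0.29) were among the 12 of the 60 with a positive value.

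RefSeq promoter windows (GRCm38.p6, 250 bases before to 50 after a start) were searched on both strands. The genes were those of the 60 probe sets with a mean response up, which include NF-kB subunits. They share this direction by choice, and most were not called for it. Of 57 such genes 50 had a window, 68 windows in all. The letters TGANTCA, which take in the AP-1 site TGA(C/G)TCA but also TGAATCA and TGATTCA, were in 4 (5.88%) beside 7.81% of 32851 windows of all genes. The CRE letters TGACGTCA were in 1 (1.47%) beside 1.79%. The letters GGANTTTCC, which cover only some NF-kB sites, were in 2 (2.94%) beside 1.25%. The CRE letters do not contain TGANTCA. Both matches to GGANTTTCC were the same site in overlapping windows of Nfkb2. The window of Nfkb2 with a match to both TGANTCA and GGANTTTCC, in capitals, is at chr19:46305445-46305744 on the plus strand. Its TGANTCA match is TGAATCA, which lies outside TGA(C/G)TCA. That of Gadd45b, with no match, is at chr10:80929841-80930140 on the plus strand. They are shown as an NF-kB subunit gene and an NF-kB target whose dimmer probe set was called for its mean response, and a match or its lack describes only these letters in these windows.
Nfkb2: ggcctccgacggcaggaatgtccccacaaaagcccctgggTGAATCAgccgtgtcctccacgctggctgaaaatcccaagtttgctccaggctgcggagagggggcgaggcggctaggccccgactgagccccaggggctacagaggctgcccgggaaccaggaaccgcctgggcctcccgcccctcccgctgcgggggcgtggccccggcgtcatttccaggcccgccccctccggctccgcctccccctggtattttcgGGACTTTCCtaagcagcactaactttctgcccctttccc
Gadd45b: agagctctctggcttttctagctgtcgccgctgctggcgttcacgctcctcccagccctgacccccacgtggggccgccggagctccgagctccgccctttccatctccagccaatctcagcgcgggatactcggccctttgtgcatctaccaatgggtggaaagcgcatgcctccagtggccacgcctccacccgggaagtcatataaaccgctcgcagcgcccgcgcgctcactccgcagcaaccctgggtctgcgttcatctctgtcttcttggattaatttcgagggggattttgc

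The gene lists were compared by counts and medians, beside all 8251 genes, of which 56.7% had a brightest probe set below 0 and 43.3% above it. Over these genes 0.897% had an unadjusted p under 0.05, and 4.65% did with the replicate block. limma called 0 members of any list. The wider spread of B6g7 responses over all probe sets bears on these lists too, so their counts and medians are descriptions. The ribosome biogenesis and growth genes had the most negative median, -0.22, with 30 of 38 below 0, and 4 of them lower at a block p under 0.05. It was -0.11 without the treated B6g7 array numbered 3 and -0.31 without number 2. Bop1, a factor of ribosomal RNA processing, gave -0.72 ± 0.37. The activation receptors and cytokines had 28 of 35 below 0 and a median of -0.18, which was -0.07 without the untreated NOD array numbered 1 and -0.23 without the untreated B6g7 array numbered 1. Heat shock proteins and chaperones had 25 of 34 below 0 and a median of -0.16, with 7 lower and 1 higher at a block p under 0.05. Hspa1a (Hsp70) had 41.2, 35.1 and 43.1 in NOD with peptide and 46.7, 37.0 and 45.8 in NOD without, against 76.7, 61.6 and 198 in B6g7 with peptide and 51.4, 46.5 and 47.8 in B6g7 without. The treated B6g7 arrays were the 3 highest, with number 3 far above, for an interaction of -1.12 ± 0.46. Without that array the median of the list was 0.01. Hspa8 and Fkbp4, a chaperone and a cochaperone, gave -0.68 ± 0.40 and -0.65 ± 0.34.

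The interferon-response genes differed between array numbers. Of 35, 11 were below 0 and the median was 0.15, but it was 0.34, 0.78 and -0.90 in numbers 1, 2 and 3. Ifit1, an interferon-induced translation inhibitor, had 54.4, 131 and 66.2 in NOD with peptide and 26.7, 37.3 and 41.9 in NOD without, against 43.5, 34.7 and 192 in B6g7 with peptide and 59.7, 135 and 87.7 in B6g7 without. The summed level of the list was 9495 to 10672 in NOD with peptide and 8371 to 9902 in NOD without, against 9497 to 23099 in B6g7 with peptide and 12059 to 14016 in B6g7 without. The highest of these was the B6g7 peptide array numbered 3. Without the 4 arrays numbered 3 the list's median was 0.60, and without the treated B6g7 array numbered 2 it was -0.12.

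Among the TCR immediate-early genes 16 of 29 were below 0, with a median of -0.03. Gadd45a, a p53 and stress target, had 114, 131 and 215 in NOD with peptide and 76.4, 141 and 137 in NOD without, against 56.8, 68.1 and 84.1 in B6g7 with peptide and 74.7, 114 and 117 in B6g7 without. Its interaction of 0.91 ± 0.43 was the opposite in sign to that of Gadd45b, and it had an unadjusted p of 0.00154 with the replicate block (limma adjusted p = 0.876). The cell cycle list had 25 of 51 below 0 and a median of 0.00, the p53 targets 6 of 17 and 0.06 (-0.07 without the untreated NOD array numbered 1), TCR proximal signalling 9 of 22 and 0.02, positive selection and maturation 15 of 30 and 0.02, glycolysis 12 of 21 and -0.03, NF-kB subunits and targets 12 of 19 and -0.11, TCR feedback and calcium regulators 15 of 22 and -0.10, and glucocorticoid-responsive genes 10 of 16 and -0.06.

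Markers of several other cell types also had mostly negative interactions, beside 56.7% of all genes below 0. In these bulk samples fewer cells of a type and less RNA per cell cannot be told apart. Of 40 myeloid and dendritic cell markers, 32 were below 0, with a median of -0.19, and 3 were lower at an unadjusted p under 0.05. Their summed level was 1747 to 2148 in NOD with peptide and 1759 to 2227 in NOD without, against 2748 to 3257 in B6g7 with peptide and 2053 to 2538 in B6g7 without. Tyrobp, an adaptor of myeloid and NK cells, had 34.9, 29.6 and 41.3 in NOD with peptide and 39.6, 38.8 and 32.6 in NOD without, against 56.9, 60.4 and 51.6 in B6g7 with peptide and 42.3, 40.8 and 28.6 in B6g7 without. The treated B6g7 arrays were the 3 highest, and the interaction was -0.69 ± 0.24 (unadjusted p = 0.0128). Like most values of Hspa1a and Irf4, most of these lay below the array medians. Lgals3, galectin-3, gave -0.96 ± 0.35 and Lyz2, lysozyme of myeloid cells, -1.15 ± 0.49 by its brighter and 0.07 by its dimmer probe set.

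NK and innate lymphocyte markers had 13 of 16 below 0 (median -0.12), erythroid markers 11 of 14 (-0.18, and 0.00 without the untreated NOD array numbered 1) and B cell markers 10 of 13 (-0.11). Thymic epithelial markers had 8 of 17 below 0 (0.01), and mesenchyme and endothelium markers 14 of 28 (0.00). Many of these markers were dim. A geometric mean intensity of at least 64 was reached by 14 of 40 myeloid, 1 of 16 NK, 3 of 14 erythroid and 7 of 13 B cell markers. It was also reached by 6 of 17 thymic epithelial and 10 of 28 mesenchyme and endothelium markers. The part of these cells in the interactions of other genes was not tested.

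**Figure D4:**
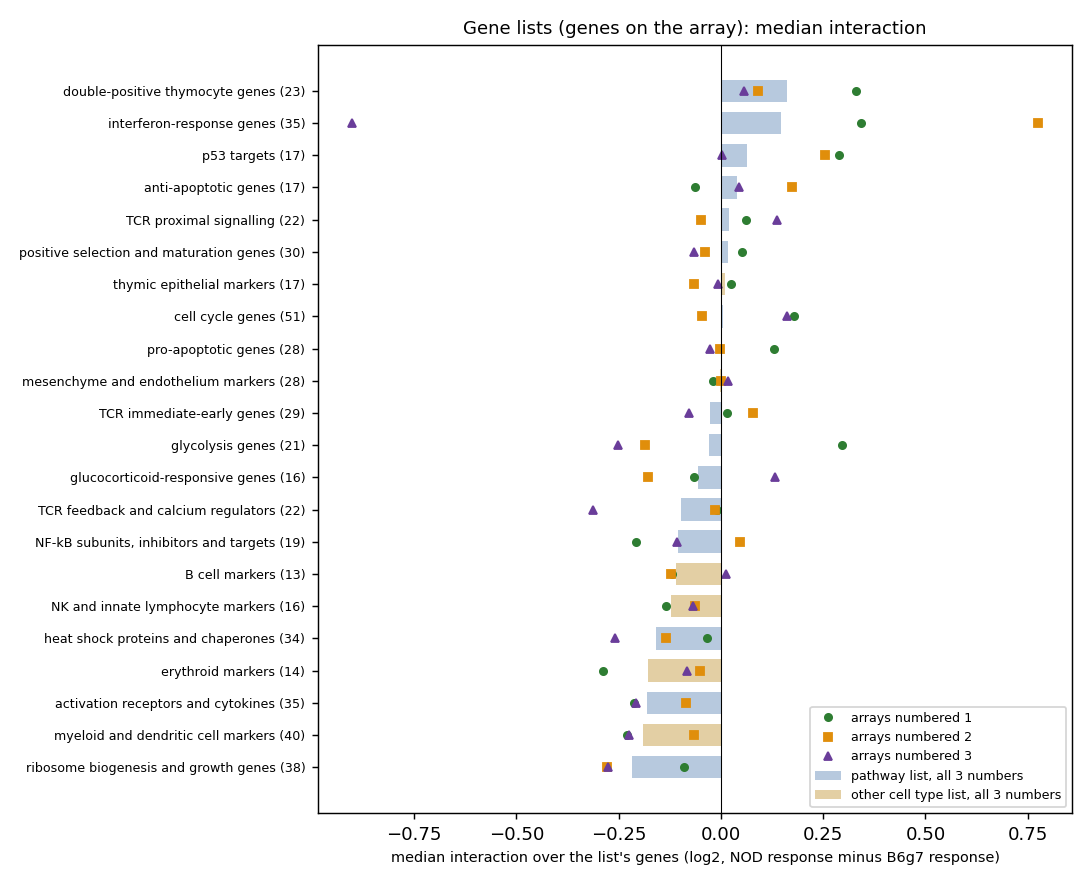
Median interaction (log2) over the genes of 16 pathway lists (blue bars) and 6 lists of other cell types (tan bars), with the number of genes on the array in brackets and symbols for arrays numbered 1, 2 and 3. The lowest median, -0.22, is that of ribosome biogenesis, and the interferon list spreads between -0.90 and 0.78 across numbers.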

How the data were processed

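Gene expression was measured on 16 Affymetrix arrays of double-positive thymocytes, of which the 12 BDC2.5 arrays were used. The authors deposited linear intensity values between 7.78 and 13168, 1 for each probe set. The software and the scaling behind these values are not given in the sources used here. Array medians were nearly equal, so no further normalization was applied.

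Of 12488 probe sets, 66 controls were left out and log2 intensities of 12422 were fitted with limma 3.58.1 in R 4.3.3 (1 mean per group, eBayes with intensity trend, 8 residual degrees of freedom, two-sided, Benjamini-Hochberg over all probe sets, called at 0.05). All p-values and adjusted p-values are limma's. Gene names come from GEO's platform annotation, which names 1 gene for 10833 probe sets, several for 396 and none for 1193. Of these, 10817 matched RefSeq by gene ID. A gene was read by its brightest probe set unless stated. The fit was tested on simulated data.

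Probe sets were named where they were their gene's brightest, had a geometric mean intensity of at least 64, an unadjusted interaction p under 0.05 and 1 sign in all 3 array numbers (up to 12 in each direction). Also named were up to 3 members of each of 22 lists with the smallest p and 42 fixed genes, of which 40 are on the array. Exceptions, named for their values, are Srgn, Sh3bp2 and Itih5 in the report, and Arg1, Irf8 and Hsp90b1 below. The genes and lists were chosen with earlier results of these data known.

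Same-numbered arrays were checked for pairing. The deviations of same-numbered arrays from their group means correlated at 0.16 to 0.84 over 12 pairs of arrays, and those of different-numbered arrays at -0.83 to 0.39 over 24. The numbers were therefore taken to pair the arrays, from the data and not from a label. Unless stated, SEs, intervals and p-values come from the fit without a block, which leaves this pairing out. The block gave a smaller median SE (0.16 against 0.22 log2) and more probe sets at an unadjusted limma p under 0.05 (578 against 134). These are 4.65% and 1.08% of all, where p-values with no effect anywhere would give a share of about 0.05. SEs and p-values without a block may therefore be too large for many probe sets. Each value was recomputed with the replicate number as a block, as a block within each strain, with all 16 arrays, with median centring, quantile normalization, log2(intensity + 32), bright probe sets only, no intensity trend, without the arrays numbered 3 and without each array. The number of arrays limits the precision.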

Additional observations from a re-analysis of the deposited data

Results flagged for a closer look

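In 18 named probe sets every NOD pair responded one way and every B6g7 pair the other way, which 377 (3.03%) of all probe sets did. limma's interaction test called none of the 18. All 18 were named by a small interaction p and none as a fixed gene, a choice that favours opposite responses. The share of all probe sets is thus no yardstick for them. Among the probe sets with the most positive interactions these were Cnn3 (1.29), Nfe2l2 (0.95), Otulinl (0.93), Midn (0.78) and Mrm3 (0.74). The most negative were Lyz2 (-1.15), Hspa1a (-1.12), Pabpc4 (-1.12) and Anapc1 (-0.75). Smaller negative values were St7 (-0.51), Acp2 (-0.49), the kinase Plk2 (-0.47), Col1a2 (-0.42), the chemokine receptor Ccr4 (-0.29) and the erythroid factor Nfe2 (-0.20). Cks1b, a subunit of cyclin-dependent kinases, gave 0.62, the collagen gene Col3a1 0.26 and the egress receptor S1pr1 0.21. Dimmer probe sets gave 0.09 and -0.14 for Col3a1, -0.02 for S1pr1, -0.07 for Col1a2 and -0.15 for Anapc1. They gave 0.00 for Pabpc4, -0.18 for Mrm3, 0.07 for Lyz2, and 1.04 and 0.04 for Otulinl. All values are interactions on the log2 scale.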

How the results depend on the processing

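The count of interaction calls was 0 under all 21 alternatives, with smallest limma adjusted p-values between 0.83 and 1, and 0 also without each array in turn (0 to 0). The count at an unadjusted p under 0.05 was 134 and became 578 with the replicate block, 689 with the block within each strain and 39 among bright probe sets, and 93 to 411 without 1 array (411 without the untreated NOD array numbered 3, 328 without the untreated B6g7 array numbered 1, 276 without the treated B6g7 array numbered 2, 232 without the untreated NOD array numbered 2). The NOD response gave 0 calls in every setting. The B6g7 response gave 1 with all 16 arrays, 3 without the arrays numbered 3, and 0 to 2 without 1 array (2 without the treated B6g7 array numbered 2). The mean response gave 7 with the replicate block, 1 with the block within each strain, 0 with median centring, 1 with log2(intensity + 32), 0 without the intensity trend, and 0 to 3 without 1 array. The replicate block changed no other call. Median centring moved the median of all interactions to 0.01 against -0.03 as deposited, and the share below 0 to 46.4% against 56.3%.

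Directions reversed in 17 of 126 named probe sets, all with intervals across 0. Without the arrays numbered 3 the values were 0.021 and -0.24 for the dimmer and brighter Egr1 probe sets, -0.044 for the dimmer Fos probe set, 0.27 for Mcl1, -0.070, -0.048 and -0.10 for the 3 of Dntt, and 0.17 for Slc1a5. Mcl1 gave 0.031 with median centring and Slc1a5 0.0026 with quantile normalization. Without 1 array, ranges were -0.19 to 0.014 for the dimmer Bcl2l1 probe set, -0.56 to 0.0070 for Ccr7, -0.69 to 0.18 for Cd5, -0.046 to 0.57, -0.50 to 0.57 and -0.17 to 0.45 for Dntt, -0.13 to 0.028 and -0.13 to 0.54 for Egr1, -0.12 to 0.46 for Fas, -0.074 to 0.67 and -0.083 to 0.084 for Fos, -0.47 to 0.16 for Il7r, -0.47 to 0.088 for Itm2a, -0.24 to 0.16 for Mcl1, -0.041 to 0.42 for Nfkbia, -0.079 to 0.21 for the dimmer Rag1 probe set and -0.21 to 0.17 for Slc1a5. Leaving out 1 array changed the sign or moved the value by over 1.5 times in 83 of the 126 named probe sets and in 23 of the 24 medians of lists and responsive sets. Over all alternatives, 43 of 504 such medians, from 11 of the 24, reversed or moved beyond the spread. The cause was not tested.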

Other observations

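Of 12422 probe sets, 40 (0.322%) had an interaction above 1 log2 in size, 18 negative and 22 positive, and limma called none of them. In 17 of the 18 negative ones the arrays numbered 3 gave the largest size, and in 11 of the 22 positive ones. Over all probe sets the interaction was also spread most widely in number 3, with an SD of 0.40 log2 against 0.35 and 0.32 in numbers 1 and 2. How often number 3 gave the largest size over all probe sets was not counted. Arg1, an arginase of activated macrophages, had the most negative interaction, -1.59 ± 0.85, with -0.83, -0.30 and -3.66 in numbers 1, 2 and 3. Irf8, a factor of myeloid cells, gave -1.51 ± 1.01, with -0.87, 0.10 and -3.77. Hsp90b1, an endoplasmic reticulum chaperone, gave -1.06 ± 0.76, with -0.78, -1.34 and -1.06.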
